A study of Mus musculus with 3 samples.

Results

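Chemokines are small secreted proteins that guide moving cells, and they act through cell-surface receptors that couple to Gi proteins. Ligands fall into the CC, CXC, CX3C and XC families by the spacing of their first cysteines, and the 4 atypical receptors (Ackr) bind ligands without Gi signalling and take them out of the extracellular space. In islets the best known sources are resident macrophages, vessels and stroma, and endocrine cells can make some of them under inflammatory stimulation. The genes described here are all rows whose symbol begins as Ccl, Cxcl, Ccr, Cxcr or Ackr followed by a number, or as Cx3c, Xcl1 or Xcr1. They are 67 of the 32285 genes of the joint table of replicates 2 and 3 (44 ligands, 19 receptors and 4 atypical receptors) and 33 of the 16157 genes of the table of replicate 1 (24 ligands, 8 receptors and 1 atypical receptor). The rule reads the symbols and no measured value.

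The study profiled dissociated islet cells of mice that carry Ngn3-CreERT, a tamoxifen-inducible Cre driven by the endocrine progenitor gene Ngn3, and the R26-CAG-TdTomato reporter, taken 10 days after tamoxifen. There were 3 samples of this 1 group from 6 mice in the series, where replicates 2 and 3 are each a pool of 2 mice, and no untreated or Cre-negative sample to serve as a control. About 10000 cells were loaded per channel on the 10x 3' v3 system, which counts unique molecular identifiers (UMIs) at the 3' end of transcripts. Levels are therefore compared for 1 gene across classes of cells and not between genes.

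Replicate 1 held 1146 cells and 27474046 UMIs (median 18140 per cell), and the joint table held 13042 distinct cells and 196833349 UMIs (median 13099.5). The cells of the joint table fall into 3 barcode blocks that could not be tied to its 2 samples, so the table counted as 1 library and the blocks are given as values only. Between 0 and 5 barcodes were shared by replicate 1 and a block, and between 4 and 6 by any pair of blocks. After filtering, 853 and 11072 cells remained. They were clustered without the chemokine genes and named by marker genes, and each name below stands for "X-like". Replicate 1 gave 410 beta, 85 alpha, 73 delta, 24 macrophage, 19 fibroblast, 18 endothelial and 12 pericyte cells. The joint table gave 6453, 1067, 533, 228, 85, 691 and 176 of these, and in addition 323 PP cells, 108 C1q-low myeloid cells (led by Fn1, Lyz2 and S100a4), 83 Schwann, 72 B, 27 neutrophil and 18 T and NK cells. Macrophage markers summed to 25134 CPM (UMIs of a gene per 1000000 UMIs summed over the class) in the macrophages of replicate 1 and to 23351 in those of the joint table, against 25.7 to 115 in the endocrine classes. Beta cell markers, insulin among them, were plentiful in non-endocrine classes. They summed to 3638 to 18074 CPM in those of replicate 1 and to 80995 to 241400.5 CPM in those of the joint table. Their part in the levels below was not tested. The endothelial marker Cldn5 had 0 UMIs in the endothelial cells of replicate 1, where the other 9 endothelial markers were present, and Cd8a was at 0 in the T and NK cells.

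Of the 67 members, 40 had at least 20 UMIs in kept cells over both tables, and 27 had fewer. RefSeq promoters (250 bases before to 50 after a start, GRCm38.p6) were found for 46 of the 67. The CXC ligands Cxcl1, Cxcl2 and Cxcl3, which draw neutrophils through Cxcr2, and Cxcl10, an interferon-induced ligand of Cxcr3, are shown because their levels are described below in different classes: Cxcl1 in fibroblasts, Cxcl2 in macrophages and neutrophils, Cxcl3 in neutrophils, and Cxcl10 in macrophages, fibroblasts and endocrine cells. Cxcl1, Cxcl2 and Cxcl3 lie in 1 gene cluster on chromosome 5, and Cxcl10 lies further along it on the other strand. The stretches printed are chr5:90891125-90891244 (plus strand), chr5:90903779-90903898 (plus), chr5:90785981-90786100 (plus) and chr5:92348890-92349119 (minus), each read 5′ to 3′ toward the gene. Capitals mark matches, on either strand, to the letters GGGNNNTTCC of an NF-kappaB site or, in Cxcl10 alone, to TTTCNNTTTC of an interferon-stimulated response element (ISRE).
Cxcl1: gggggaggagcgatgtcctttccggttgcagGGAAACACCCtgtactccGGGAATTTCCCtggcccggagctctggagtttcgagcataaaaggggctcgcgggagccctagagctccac
Cxcl2: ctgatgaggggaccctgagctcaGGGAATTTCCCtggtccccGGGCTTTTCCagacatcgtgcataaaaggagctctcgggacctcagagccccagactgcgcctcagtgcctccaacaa
Cxcl3: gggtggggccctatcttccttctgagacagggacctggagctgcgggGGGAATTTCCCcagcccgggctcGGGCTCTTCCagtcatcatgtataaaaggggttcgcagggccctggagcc
Cxcl10: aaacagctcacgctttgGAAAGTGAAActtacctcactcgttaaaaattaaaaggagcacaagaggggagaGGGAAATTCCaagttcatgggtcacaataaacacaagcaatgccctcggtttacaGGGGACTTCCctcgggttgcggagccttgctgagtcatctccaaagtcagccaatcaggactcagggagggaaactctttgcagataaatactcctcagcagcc
In Cxcl1 the capitals hold 3 overlapping or neighbouring kappaB matches at 89 to 80, 71 to 62 and 70 to 61 bases before the start. Cxcl2 has 3, at 97 to 88, 96 to 87 and 78 to 69, and Cxcl3 has 3, at 73 to 64, 72 to 63 and 50 to 41. In Cxcl10 the first run of capitals is the ISRE match (213 to 204 bases before the start), and the other 2 are kappaB matches (159 to 150 and 104 to 95). The kappaB letters occurred in 4.65% of the 32851 windows of 250 bases before a start, and in 9 of the 54 windows of members (Ccl1, Ccl20, Ccl9, Ccr3, Ccr6, Cxcl1, Cxcl10, Cxcl2 and Cxcl3). The ISRE letters occurred in 2.98% of all windows and in 3 of the 54 (Ccl19, Cxcl10 and Cxcl14). A match is a string of letters and no binding was measured.

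Most of the measured family had its highest level outside the endocrine cells. In replicate 1, where 4 of the 7 classes are non-endocrine, 26 of 32 members were highest in such a class (81.2%, against 43.8% of all 15463 genes counted in the same way). In the joint table, with 9 of 13 classes, 35 of 40 were (87.5%, against 55.9% of 16477 genes). A gene counted here where it had at least 20 UMIs over both tables and at least 5 in its highest class. Among the named classes of both libraries, Ccl12, Cxcl16 and Cx3cr1 were highest in macrophages, Ccl2, Cxcl1, Cxcl5 and Cxcl12 in fibroblasts, Cx3cl1 in endothelial cells, and Ackr3 in pericytes. Differences were tested in 1 limma fit over 14 columns (7 classes in each of the 2 libraries) on the log2 of the mean UMIs per 10000 plus 0.05. The fit covered 11316 genes, among them 29 of the 33 members listed in both tables. The other 4 (Ccl28, Ccr10, Cxcl3 and Cxcr2) were under the filter of 0.1 per 10000 in at least 2 columns. A member present in 1 class alone passes that filter only through that class, so the counts of calls below are descriptions, to be read beside the share of all genes called. The classes were built on the other genes of the same cells, and the spread behind each p is that between 2 libraries. Without centring the columns on their medians, the median difference of all genes was -0.71 in the beta cell comparison (0.08 with centring), -0.38 in macrophages (0.05), 0.47 in delta cells (-0.06) and -0.07 to 0.27 in the others (-0.16 to -0.02).

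**Figure D1:**
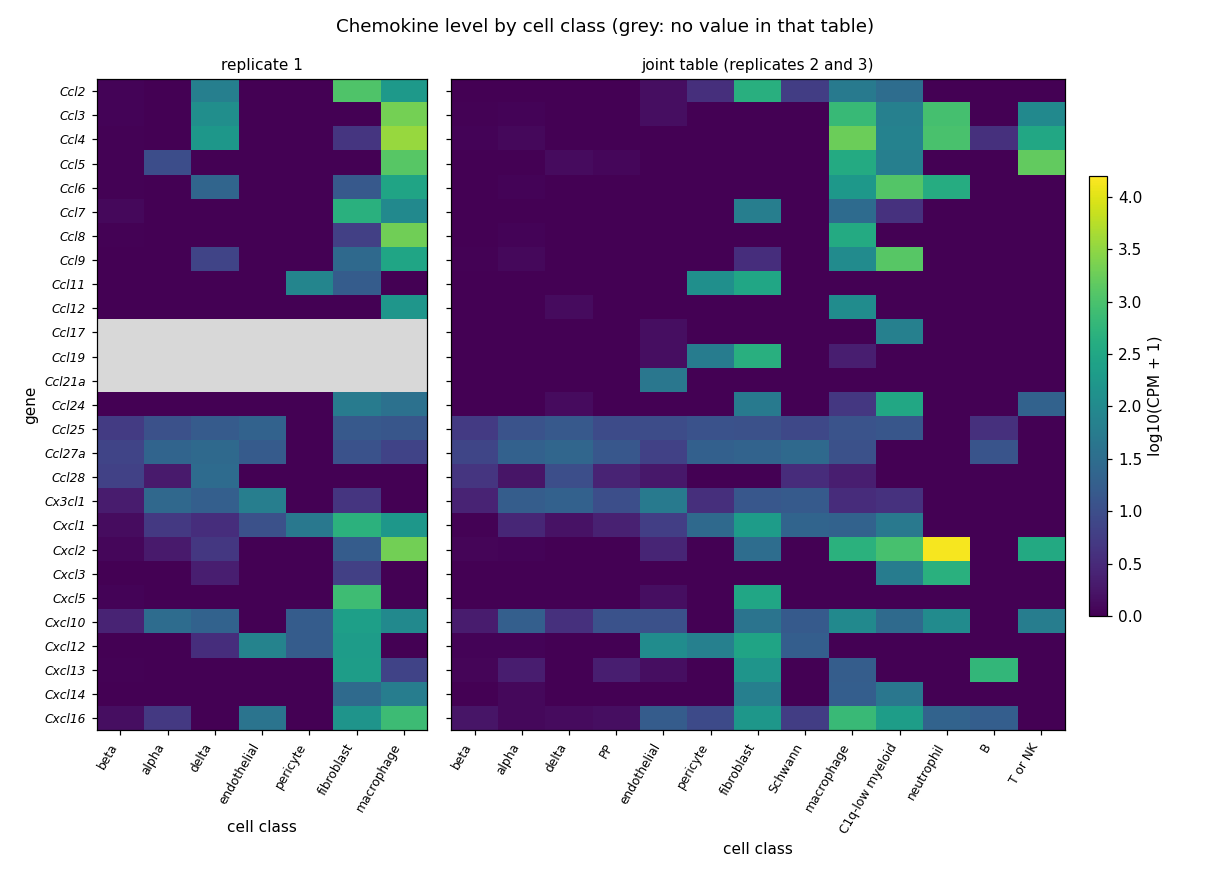
Levels of 27 ligands (rows) by cell class (columns) in replicate 1 and in the joint table, as log10 of CPM plus 1, with grey where a table does not list the gene. Ccl4 stands at 3560.4 and 1781 CPM in macrophages, Ccl2 at 1121 and 451 CPM in fibroblasts, and Cxcl2 at 13785 CPM in neutrophils of the joint table.

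Against the mean of beta, alpha and delta cells, the mean of macrophages, fibroblasts, endothelial cells and pericytes was higher for 19 of the 29 members and lower for 0, where 24.3% of all genes were higher and 22.5% lower (limma, adjusted p under 0.05). At an unadjusted p under 0.05 there were 24. The difference was 3.41 ± 0.31 (log2, SE) for Cxcl16, a membrane-bound ligand of Cxcr6 (adjusted p = 3.43e-06). It was 2.90 ± 0.29 for Cxcl12, the ligand of Cxcr4 and Ackr3 (adjusted p = 6.89e-06), and 2.56 ± 0.30 for Cxcl1 (adjusted p = 2.47e-05). Ackr3, which scavenges Cxcl12, was higher by 2.14 ± 0.21 (adjusted p = 6.98e-06). Cxcl1 and Cxcl16 were called under every alternative tried. With edgeR on the UMIs, 3 of the 19 calls remained, and Cxcl12 and Ackr3 were among those lost. Ccl5 turned to -0.47 there. With DESeq2 13 remained, Cxcl12 and Ackr3 among them.

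Of the 4 non-endocrine classes, macrophages had the most members called higher. Of the 29 members 20 were higher in macrophages than in the mean of the other 3 non-endocrine classes and 5 were lower, where 14.8% of all genes were higher and 13.6% lower. All 20 were also called higher by edgeR, and 11 of them by DESeq2. Ccl4, a CC ligand that draws monocytes and T cells, stood at 3560.4 CPM in replicate 1 (95% interval 3279 to 3859.9; 589 UMIs in 19 of 24 cells) and at 1781 CPM in the joint table (1690.3 to 1875; 1442 UMIs in 168 of 228 cells). Its 3 blocks gave 1790.1, 2294 and 1340.1 CPM. In beta cells Ccl4 was at 0.118 CPM in the joint table. The fitted difference was 9.19 ± 1.13 (adjusted p = 6.59e-05), and its size depends on the added 0.05 because Ccl4 was at or near 0 in the classes it is set against.

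Ccl3, encoded beside Ccl4 on chromosome 11 and a ligand of Ccr1, stood at 2116 and 683 CPM and differed by 8.23 ± 1.07 (adjusted p = 1.08e-04). Its blocks in the joint table gave 685, 732 and 639.6 CPM. Ccl3 and Ccl4 were found in the same cells: 18 of the 19 Ccl3-positive macrophages of replicate 1 also had a Ccl4 UMI, as did 126 of 144 in the joint table (87.5%, against 50% of Ccl3-negative macrophages). Both genes lie within chr11:83647844-83664683.

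Ccl8, a CC ligand of the cluster that also holds Ccl2, Ccl7, Ccl11 and Ccl12 on chromosome 11, came from few macrophages. It stood at 1958 CPM in replicate 1, with 324 UMIs in 6 of 24 cells, and at 371 CPM in the joint table, with 300 UMIs in 16 of 228 cells. Its blocks ranged widely, at 241, 1042 and 117 CPM. Of these 300 UMIs, 294 were in a sub-cluster of 17 macrophages led by Mrc1, F13a1 and Maf, where Ccl8 reached 4517 CPM. The macrophages with Ccl8 had a UMI of Mrc1, the mannose receptor of tissue macrophages, in 6 of 6 cells of replicate 1 and in 13 of 16 of the joint table (81.2%, against 8.96% of the others). They seldom had Ccl4, at 33.3% against 94.4% in replicate 1 and 18.8% against 77.8% in the joint table.

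The same 17 Mrc1-led cells were also high in other monocyte-attracting ligands. Ccl6 stood at 937 CPM, Ccl2 at 507, Ccl12 at 430.2 and Ccl7 at 353 there. The 211 macrophages led by H2-Eb1, H2-Aa and C1qb held the other side of the class, with Ccl4 at 1934 CPM, Ccl3 at 736, Cxcl2 at 497 and Ccl5 at 395. Cxcl16 was at 758 CPM in these and at 123 in the Mrc1-led cells. These sub-clusters came from the same cells as the values and were not tested.

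Other ligands were also higher in macrophages, and most were read from a part of the cells. Cxcl2 stood at 2013 CPM in replicate 1 and 483 in the joint table (difference 7.32 ± 0.44, adjusted p = 1.33e-07). Cxcl16 was steadier, at 749.5 and 706 CPM (4.69 ± 0.47, adjusted p = 1.06e-05), with a UMI in 21 of 24 and 182 of 228 cells. Ccl12 was read almost only from this class, at 157 and 109 CPM (5.31 ± 0.24, adjusted p = 1.54e-08), and all 26 of its UMIs in replicate 1 were in macrophages. The Ccl12 call did not remain with DESeq2. Ccl6 and Ccl9, rodent ligands of Ccr1, stood at 284 and 296 CPM in replicate 1 and at 173 and 106 CPM in the joint table (5.6 ± 0.75, adjusted p = 1.37e-04, and 5.24 ± 0.64, adjusted p = 5.85e-05). Cxcl2 was detected in 69 of the 228 macrophages in the joint table, Ccl12 in 46, Ccl6 in 73 and Ccl9 in 56.

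Members higher in both macrophages and fibroblasts included Cxcl10, whose promoter is printed above. In macrophages Cxcl10 stood at 96.7 and 97.6 CPM (2.72 ± 0.66, adjusted p = 0.00835), and this was called under every alternative. In fibroblasts it stood at 235 CPM in replicate 1 (135 UMIs in 8 of 19 cells) and at 40.8 in the joint table (2.36 ± 0.66, adjusted p = 0.0277), and was not called with a pseudocount of 0.01 or without the filter. Cxcl14, another CXC ligand, stood at 60.4 and 17.3 CPM in macrophages (1.83 ± 0.35, adjusted p = 0.00202) and at 27.8 and 63.7 in fibroblasts (2.70 ± 0.35, adjusted p = 2.35e-04), and neither was called with DESeq2. Ccl24 stood at 55.6 and 51.0 CPM in fibroblasts, but 21 of 32 and 17 of 20 UMIs were in 1 cell, and the levels were 21.2 and 7.89 CPM without it. In macrophages Ccl24 stood at 36.3 CPM in replicate 1 (6 UMIs in 2 of 24 cells) and had only 3 UMIs in the joint table. The fitted difference of Ccl24 was 1.83 ± 0.55 in fibroblasts (adjusted p = 0.0384) and 2.09 ± 0.55 in macrophages (adjusted p = 0.0129). Neither was called with DESeq2 or with the highest cell left out. Ccl2 and Ccl7, described with the fibroblasts, stood at 187 and 53.1 CPM and at 96.7 and 28.4 CPM in macrophages (2.88 ± 0.79, adjusted p = 0.0171, and 2.58 ± 0.61, adjusted p = 0.00753), and neither was called with DESeq2 or with a pseudocount of 0.5. Cxcl16 was higher in fibroblasts too, at 151 and 163 CPM (1.52 ± 0.47, adjusted p = 0.0437), but this was lost under 5 of the alternatives, DESeq2 among them.

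Ccl5, a ligand of Ccr1 and Ccr3, rested on fewer cells. In replicate 1 its 210 UMIs were in 2 macrophages, 153 of them in 1 cell, and the level of 1269 CPM was 364 without it. Macrophages of the joint table had a UMI in 26 of 228 cells, the level was 363 CPM, and the blocks gave 483, 335 and 112 CPM. The difference was 7.34 ± 0.48 (adjusted p = 2.69e-07) and was called also with the highest cell of each class left out. Of the 20 members higher in macrophages, 19 could be fitted without their highest cell, and Ccl7, Ccl24 and Cxcl14 were then not called. The 5 lower members were Cxcl12 (-3.96), Ackr3 (-2.81), Ccl11 (-2.52), Cxcl5 (-1.47) and Cx3cl1 (-1.24), and of these Cxcl12 and Ackr3 were called under every alternative.

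The joint table held myeloid and lymphoid classes that replicate 1 did not yield as classes, and their levels have no replicate and no test. In the 108 C1q-low myeloid cells Ccl9 stood at 1293 CPM (1173 to 1422; 87 cells), against 106 (85.0 to 131) in macrophages. Ccl6 stood at 1175 CPM (1061 to 1298) there, against 173 (145 to 204) in macrophages. The intervals do not overlap, but they cover counting error only. Of the C1q-low cells with Ccl9, 86.2% also had Ccl6, against 33.3% of those without. Ccl24, an eotaxin that binds Ccr3, stood at 333 CPM in them with 110 UMIs in 23 cells, and Cxcl2 stood at 942 CPM. Ccl17 was at 66.6 CPM, and 11 of its 22 UMIs were in 1 cell.

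Neutrophils (27 cells, median 1745 UMIs) had Cxcl2 at 13785 CPM (12747 to 14885), above its level in each other named class, with a UMI in 25 of 27 cells. Macrophage markers summed to 13404 CPM in them and to 12179 CPM in the C1q-low myeloid cells, and their part in these levels was not tested. Ccl3 stood at 930.3 CPM (676 to 1249), Ccl4 at 973 with 29 of 46 UMIs in 1 cell, and Cxcl3 at 465 with 21 of 22 UMIs in 1 cell. The 18 T and NK cells stood at 1539 CPM of Ccl5 (1216 to 1921), with a UMI in 7 cells, the highest level of Ccl5 among the named classes of the joint table. Of their 78 UMIs 38 were in 1 cell, the level was 818 CPM without it, and the blocks gave 110.3, 2906 and 1916 CPM. Among the 72 B cells Cxcl13, which guides B cells through Cxcr5, was at 612 CPM, and all 212 UMIs were in 1 cell whose leading genes included Mfge8 and Clu beside Igkc.

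**Figure D2:**
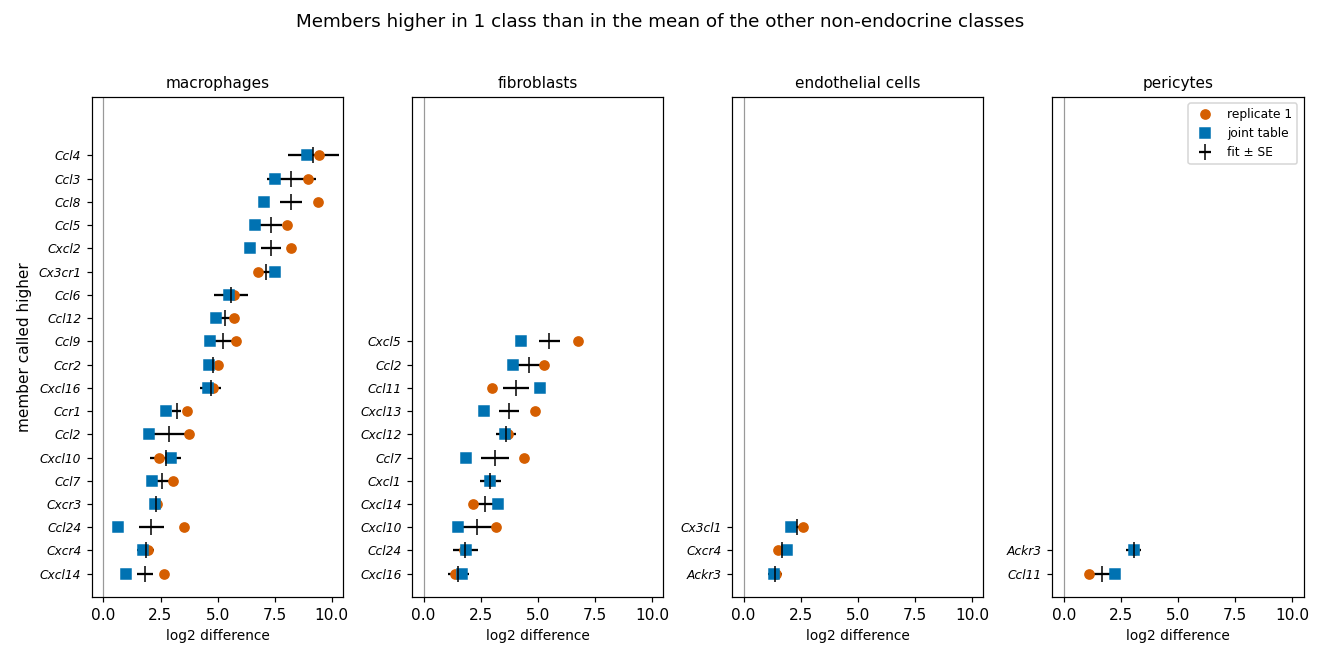
Fitted log2 differences (crosses, with SE bars) of members called higher in macrophages, fibroblasts, endothelial cells or pericytes, each against the mean of the other 3 non-endocrine classes, with the values of replicate 1 (circles) and the joint table (squares). Ccl4 lies at 9.46 and 8.91 in macrophages and Ackr3 at 3.06 and 3.06 in pericytes, while Ccl24 in macrophages lies at 3.54 and 0.65.

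Fibroblasts were higher in Ccl2 and Ccl7, which draw monocytes through Ccr2, and in the neutrophil-attracting Cxcl1 and Cxcl5. In fibroblasts 11 of the 29 members were higher and 7 lower than in the mean of the other non-endocrine classes, where 8.55% of all genes were higher and 8.53% lower. The fibroblast class rests on different cells in the 2 libraries: 19 cells led by Col1a1 and Col3a1 with a median of 25836 UMIs in replicate 1, and 74 cells of the joint table led by Dcn, Col3a1 and Gsn with 11 more led by Saa3, Timp1 and C3 (median over that class 2782). Cxcl1 differed by 2.93 ± 0.46 (adjusted p = 8.40e-04), with 495 and 211 CPM and a UMI in 15 of 19 and 22 of 85 cells. Cxcl5 differed by 5.51 ± 0.45 (adjusted p = 7.19e-06), with 779 and 303 CPM in 14 of 19 and 8 of 85 cells. They were not the one place where Cxcl5 was read: in the joint table fibroblasts held 119 of its 273 UMIs and clusters of mixed markers held 151, and 45.3% of those in replicate 1 were in unnamed cells. All 11 higher calls remained with edgeR and 5 with DESeq2. None of the 7 lower calls remained with either of these. Macrophage markers summed to 372 CPM in the fibroblasts of replicate 1 and to 56.1 CPM in those of the joint table, and their part in these levels was not tested.

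Ccl2 stood at 1121 CPM in the fibroblasts of replicate 1 (1036 to 1211; 13 of 19 cells) and at 451 in those of the joint table (387 to 523; 11 of 85 cells). Of the 177 UMIs in the joint table, 100 were in 1 cell, and the level without it was 207 CPM. The difference was 4.6 ± 0.79 (adjusted p = 0.00168). Ccl7 followed with 461 and 61.2 CPM (3.13 ± 0.61, adjusted p = 0.00385), and 13 of the 24 UMIs of the joint table were in 1 cell. Macrophages held another 23 of the 48 UMIs of Ccl7 there. Ccl2 and Ccl7 are neighbours on chromosome 11, Ccl2 at chr11:82035571-82037453 and Ccl7 at chr11:82045712-82047525. The 11 Saa3-led cells of the joint table held Ccl2 at 943 CPM, Cxcl5 at 718, Cxcl13 at 371 and Cxcl1 at 347.

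Cxcl12, Ccl11 and Ccl19 were higher in the Dcn-led than in the Saa3-led fibroblasts of the joint table, as a description with no test. Cxcl12 stood at 205 and 285 CPM (3.62 ± 0.44, adjusted p = 1.40e-04), in 9 of 19 and 42 of 85 cells, and at 438 CPM in the 74 Dcn-led cells against 73.0 in the 11 Saa3-led ones. Ccl11, an eotaxin, stood at only 15.6 CPM in replicate 1 and at 306 in the joint table (4.04 ± 0.57, adjusted p = 4.30e-04). It was at 526 CPM in the Dcn-led cells, and it was not called with DESeq2 or with the highest cell left out. Ccl19, a ligand of Ccr7 that only the joint table lists, stood at 438 CPM in fibroblasts (375 to 509; 45 of 85 cells), at 754 CPM in the Dcn-led cells, and at 57.8 CPM in pericytes (36.2 to 87.6). Cxcl13 differed by 3.76 ± 0.44 (adjusted p = 1.05e-04) with 219 and 155 CPM, of which 42 of 61 UMIs in the joint table were in 1 cell (50.1 CPM without it). Ccl2, Cxcl1, Cxcl12 and Cxcl13 were the 4 of the 11 that were called under every alternative run.

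Endothelial cells had 3 of the 29 members higher and 21 lower than the mean of the other non-endocrine classes, where 10.9% of all genes were higher and 13.1% lower. Cx3cl1, a membrane-tethered chemokine that holds Cx3cr1-bearing monocytes and macrophages, stood at 60.6 CPM in replicate 1 (31.3 to 106; 12 UMIs in 7 of 18 cells) and at 52.9 in the joint table (44.1 to 63.0; 126 UMIs in 105 of 691 cells). The difference was 2.33 ± 0.35 (adjusted p = 4.58e-04; 2.59 in replicate 1 and 2.07 in the joint table) and was called under every alternative. Cxcr4 was higher by 1.69 ± 0.36 (adjusted p = 0.00393) and Ackr3 by 1.38 ± 0.32 (adjusted p = 0.00793). Both were called by edgeR and DESeq2 but not once the highest cell was left out. Of the 21 lower calls, 2 remained with edgeR and 6 with DESeq2. These lower calls are set against macrophages and fibroblasts, so they repeat in part the higher calls above.

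Cxcl12 and its scavenger Ackr3 were highest in different endothelial sub-clusters of the joint table, though cells led by Fabp4 and Aqp1 held both. These sub-clusters came from the same cells as the values and were not tested. Cxcl12 stood at 235 CPM in 53 cells led by Stmn2 and at 192 in 120 led by Tm4sf1 and Rbp7, and Ackr3 was under 20 CPM in both. In 214 cells led by Rgcc and Esm1 Ackr3 stood at 75.6 CPM, against 62.1 in the whole class, and Cxcl12 at 27.4, against 111. Cells led by Fabp4 and Aqp1 had both, at 146 and 128 CPM. Over the whole class, cells with Cxcl12 had Ackr3 about as often as the rest, at 14.2% against 15.8%, at a median of 2892 UMIs per cell. Ackr1, the Duffy receptor known from venules, was at 372 CPM in 18 unnamed cells led by Aqp1, Lrg1, Fabp4 and Vwf. Ackr2 was at 9.24 CPM in endothelial cells. Neither of these is listed in replicate 1.

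Pericytes, the contractile cells along capillaries, had 2 of the 29 members higher and 21 lower, where 10.7% of all genes were higher and 17.3% lower. Ackr3 stood at 95.9 CPM in replicate 1 (35.2 to 209; 6 UMIs in 3 of 12 cells) and at 158 in the joint table (120.4 to 203; 60 UMIs in 42 of 176 cells). The difference was 3.06 ± 0.32 (adjusted p = 5.89e-05), the same in both libraries, and it was called under every alternative. Ccl11 was higher by 1.67 ± 0.57 (adjusted p = 0.0474), but in replicate 1 its 5 UMIs (79.9 CPM) were in 1 cell, and it was not called with DESeq2 or with the highest cell left out. Ccl11 in the joint table stood at 124 CPM with a UMI in 22 of 176 pericytes. Of the 21 lower calls, 3 remained with edgeR and 3 with DESeq2.

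The receptors were read mostly from myeloid cells. Cx3cr1 stood at 459 CPM in the macrophages of replicate 1 (362 to 575; 18 of 24 cells) and at 651 in those of the joint table (597 to 709; 183 of 228 cells, 80.3%). With each cell thinned to 2000 UMIs the shares were 47.8% and 70.9%. In beta cells, which should lack it, 0.0775% of 6453 cells had a UMI at a median of 20335 UMIs per cell, against 3551.5 in macrophages. The difference from the other non-endocrine classes was 7.13 ± 0.27 (adjusted p = 6.86e-09). It was also called by edgeR and was not by DESeq2 (adjusted p = 0.0643).

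**Figure D3:**
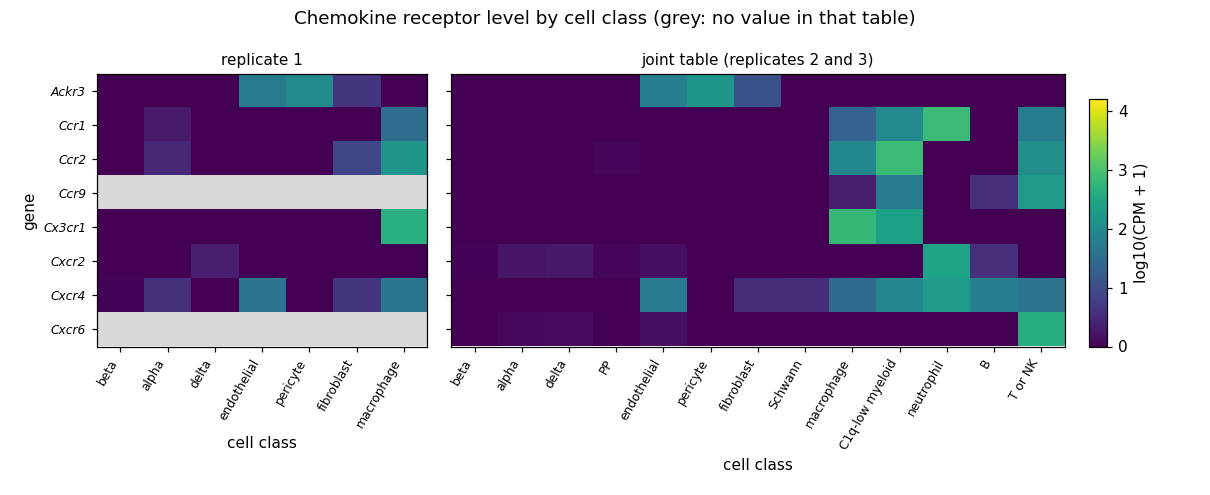
Levels of 8 receptors (rows) by cell class (columns) in replicate 1 and in the joint table, as log10 of CPM plus 1, with grey where a table does not list the gene. Cx3cr1 stands at 459 and 651 CPM in macrophages, Ccr2 at 715 in C1q-low myeloid cells and Ackr3 at 95.9 and 158 in pericytes.

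Ccr2 and Ccr1 were also higher in macrophages by limma and edgeR, and neither was called by DESeq2. Ccr2, the receptor of Ccl2, Ccl7 and Ccl12, stood at 151 and 88.9 CPM (4.81 ± 0.35, adjusted p = 6.43e-07). In replicate 1, 13 of its 25 UMIs were in 1 cell, without which the level was 76.7 CPM. Ccr2 was higher, within the joint table, in the C1q-low myeloid cells, at 715 CPM (626 to 812; 58 of 108 cells), where Cx3cr1 was lower, at 245 (195 to 305). Ccr1 stood at 30.2 and 19.8 CPM in macrophages (3.2 ± 0.21, adjusted p = 2.64e-07), at 96.9 in C1q-low myeloid cells and at 719 in neutrophils (498 to 1004; 18 of 27 cells).

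Cxcr4, the receptor of Cxcl12, was read from vascular and from leukocyte classes. It stood at 40.4 and 50.8 CPM in endothelial cells and at 42.3 and 28.4 in macrophages, where it was higher by 1.85 ± 0.36 (adjusted p = 0.00197) and was called under every alternative. Neutrophils of the joint table had it at 211 CPM (101 to 389), C1q-low myeloid cells at 87.8 and B cells at 63.5, of which 18 of 72 had a UMI. Cxcr2 was read from neutrophils, at 275 CPM (146 to 470; 9 of 27 cells), while 0.201% of beta cells had a UMI. Cxcr6, the receptor of Cxcl16, stood at 414 CPM in T and NK cells (256 to 633; 9 of 18 cells). Ccr9, the receptor of Ccl25, stood at 197 CPM in the same class with 10 UMIs in 3 cells, and at 54.5 CPM in C1q-low myeloid cells.

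The receptors were then set beside their ligands by the named class where each was highest. Cx3cl1 was highest in endothelial cells in both libraries and Cx3cr1 in macrophages in both. The intervals of Cx3cl1 in replicate 1 overlapped between endothelial cells (60.6 CPM, 31.3 to 106) and alpha cells (24.9 CPM, 16.1 to 36.8). Cxcl12 was highest in fibroblasts in both, Ackr3 in pericytes in both, and Cxcr4 in macrophages of replicate 1 and neutrophils of the joint table. In replicate 1 the intervals of Cxcr4 overlapped between macrophages (42.3 CPM, 17.0 to 87.2) and endothelial cells (40.4 CPM, 17.4 to 79.6). Ccl2 was highest in fibroblasts, and Ccr2 in macrophages of replicate 1 and C1q-low myeloid cells of the joint table. The 18 unnamed cells of replicate 1 led by S100a9 and S100a8 stood above its macrophages, with Cxcr4 at 269.8 CPM and Ccr2 at 472. Cxcl2 and Cxcr2 were both highest in the neutrophils of the joint table. For Ccl8 and Ccr8, Ccl19 and Ccr7, Cxcl13 and Cxcr5, and Cxcl10 and Cxcr3, the receptor had under 20 UMIs over both tables. These are orders of levels over classes, and no contact or signalling was measured.

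Low levels of 5 ligands in endocrine cells are described below, and limma called none of the 29 members between beta, alpha and delta cells. In beta against the mean of alpha and delta cells limma called 0 higher and 0 lower (2.09% and 2.45% of all genes), with 6 at an unadjusted p under 0.05. In alpha cells it called 0 and 0 (1.50% and 1.51% of all genes), with 0 at an unadjusted p under 0.05. In delta cells it called 0 and 0 (1.56% and 0.840%), with 6 at an unadjusted p under 0.05. edgeR with TMM scaling called 4, 4 and 5 of them and DESeq2 called 3, 3 and 1. In beta cells Cx3cl1, Cxcl1 and Cxcl10 were lower with both tools, and Ccl27a with edgeR. In alpha cells Cx3cl1, Cxcl1 and Cxcl10 were higher with both, and Cxcl13 with edgeR. Cxcl1 differed by -2.53 in beta and 2.42 in alpha cells (edgeR, adjusted p = 0.00827 and 0.00419). It had 18 UMIs in the alpha cells of the joint table. Of the 5 delta calls of edgeR, 4 (Ccl2, Ccl3, Ccl4 and Ccl6), and the 1 of DESeq2 (Ccl2), are genes whose delta UMIs in replicate 1 lay almost wholly in 2 cells with 0 UMIs of Sst, described below.

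Cx3cl1 was the endocrine member nearest to a call. In replicate 1 it stood at 1.08 CPM in beta cells (0.648 to 1.68), 24.9 in alpha cells (16.1 to 36.8) and 17.5 in delta cells (9.56 to 29.3). It stood at 1.64, 16.1 and 19.1 CPM in those of the joint table, and at 9.13 in PP cells. Beta cells were the lowest in both libraries, with intervals that do not overlap those of alpha or delta cells. The fitted difference of beta cells was -1.17 ± 0.38 (limma, adjusted p = 0.126). It was called without centring (-1.96, adjusted p = 0.00415), with the hormone genes left out of the totals (-1.91, adjusted p = 0.00965), with no removal of doublets (adjusted p = 0.0395), by edgeR (-2.53, adjusted p = 7.31e-08) and by DESeq2 (-2.67, adjusted p = 7.20e-11). Insulin takes up a large part of beta cell UMIs: with hormones left out Cx3cl1 was at 3.49 and 5.41 CPM in beta cells and at 35.9 and 26.1 in alpha cells.

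Cxcl10 was higher in alpha than in beta cells in both libraries, at 29.9 against 1.59 CPM and at 17.4 against 1.08 CPM. The difference of alpha cells from the mean of beta and delta cells was 1.05 with an adjusted p of 0.863 by limma, 2.5 (adjusted p = 3.47e-05) by edgeR and 2.40 (adjusted p = 0.0157) by DESeq2. Delta cells were at 20 CPM in replicate 1 and at 2.77 in the joint table, so the libraries differ on their place. In beta cells the 155 UMIs of the joint table were in 84 of 6453 cells, with up to 11 in 1 cell. The beta cells with Cxcl10 had Ifit3, an interferon-induced gene, in 2 of 84 cells (2.38%, against 0.173% of the others), and Rsad2, another, at 7.14% against 8.16%.

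Ccl28, a mucosal chemokine that binds Ccr10 and Ccr3, stood at 5.44 CPM in beta cells, 28.7 in delta cells and 0.996 in alpha cells in replicate 1, and at 3.37, 9.25 and 0.728 in the joint table. The order delta, beta, alpha was the same in both, on totals that include the hormone genes. Ccl28 was under the filter of the fit. With hormone genes left out of the totals it entered the limma fit, at -1.71 in alpha cells (adjusted p = 0.00744) and 1.23 in delta cells (adjusted p = 0.0484). Beta cells were at 0.48 in that fit (limma, adjusted p = 0.620). Ccl27a, a ligand of Ccr10, stood at 6.35, 21.9 and 26.2 CPM in beta, alpha and delta cells of replicate 1 and at 6.63, 18.8 and 23.7 in the joint table. With hormones left out it was at 20.6 and 21.9 CPM in beta cells and at 31.6 and 30.5 in alpha cells. Ccl27a was not particular to endocrine cells, since Schwann cells stood at 26.2 CPM (13.1 to 46.8). Ccl25 showed the same order, at 4.42, 9.96 and 15 CPM and at 4.14, 10.7 and 13.9 CPM. These levels of Ccl25 are on totals that include the hormone genes.

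**Figure D4:**
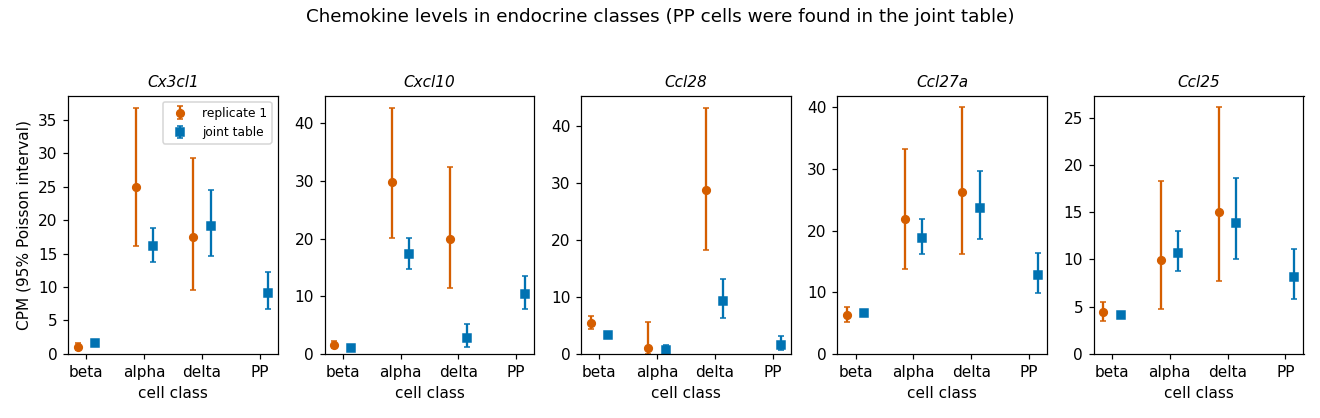
CPM with exact 95% Poisson intervals of Cx3cl1, Cxcl10, Ccl28, Ccl27a and Ccl25 in beta, alpha and delta cells of both libraries and in PP cells of the joint table. Cx3cl1 lies at 1.08 and 1.64 in beta cells and at 24.9 and 16.1 in alpha cells, and Ccl28 lies at 0.996 and 0.728 in alpha cells.

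Single cells carried several of these levels. Of the values of a member in a named class with at least 20 UMIs, 6 of 35 in replicate 1 and 10 of 83 in the joint table had at least 50% of the UMIs in 1 cell. All 107 Ccl21a UMIs of endothelial cells were in 1 cell whose leading genes were Mmrn1, Lyve1, Reln and Cldn5, and Ccl21a shares near-identical copies with other rows, so its reads are uncertain. In the delta cells of replicate 1, 94 UMIs of Ccl3, 134 of Ccl4 and 18 of Ccl6 were in 1 cell of 2540 UMIs led by Ifitm1, Cd69 and Osm, and 49 of 51 UMIs of Ccl2 were in another, led by Fabp7, Apoe and Apod. Both had 0 Sst UMIs, as had 7 of the 73 delta cells. Without those 7 cells Ccl3, Ccl4 and Ccl6 were at 0 and Ccl2 was at 2.66 CPM. The joint table had no such cells among its 533 (0 without Sst), and these 4 genes were at 0 in its delta class.

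**Figure D5:**
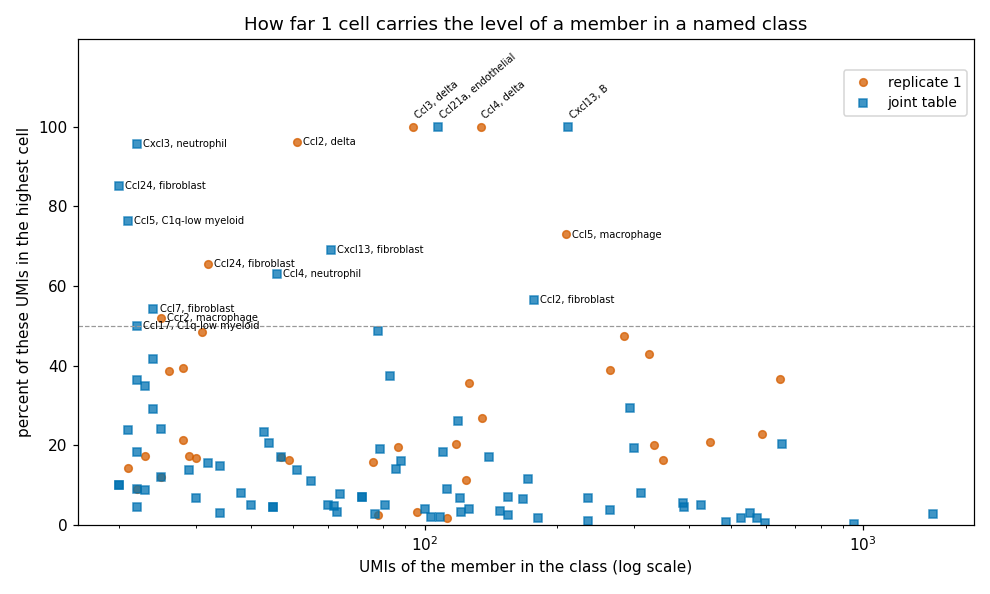
Percent of the UMIs of a member in a class that its highest cell holds, against the UMIs of that member in the class (log axis), for values of at least 20 UMIs, with the dashed line at 50%. Ccl21a in endothelial cells and Cxcl13 in B cells lie at 100%, while most values with many UMIs lie low.

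The 27 members under 20 UMIs were Ackr4, Ccl1, Ccl19.1, Ccl21a.1, Ccl21b, Ccl21b.1, Ccl21c, Ccl21c.1, Ccl22, Ccl26, Ccl27a.1, Ccl27a.2, Ccl27b, Ccr1l1, Ccr3, Ccr4, Ccr6, Ccr7, Ccr8, Cxcl15, Cxcl17, Cxcl9, Cxcr1, Cxcr3, Cxcr5, Xcl1 and Xcr1. They include the other interferon-induced Cxcr3 ligand listed, Cxcl9, and the lymphocyte receptors Ccr7, Cxcr3 and Cxcr5. Cxcr3, with 4 UMIs in replicate 1 and 11 in the joint table, is nevertheless among the counts of calls above. It was called higher in macrophages and lower in endothelial cells, fibroblasts and pericytes. None of these calls of Cxcr3 remained with DESeq2. Of the 67 rows, 14 had no UMI in any kept cell of the joint table. The rows with a suffix repeat a symbol for a near-identical gene copy, and reads that fit several copies may be missing from all of them. Ackr1, Ackr2, Ccl20 and Ccr10 passed 20 UMIs but were in no class given in full.

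Other genes of the same pathways were taken from 3 lists, and in macrophages their counts are set beside the 14.8% of all genes called higher and the 13.6% called lower. Of 40 genes of receptor signalling tested, 22 were higher and 2 lower (median difference 1.12, against 0.05 over all genes). Among them were the GTPase Rac2 (5.36) and the arrestin Arrb2 (4.86), beside the exchange factors Vav1 (4.76) and Dock2 (4.44) and the G protein subunit Gng2 (4.34). Of 29 inducers of chemokine genes, 16 were higher and 2 lower (median 1.13). The cytokine Il1b led with 7.85, then Tnf (6.43), Il1a (4.10), the transcription factor Irf8 (3.87), the receptor Tlr2 (3.72) and Tnfaip3 (3.59), which restrains NF-kappaB. Of 14 other chemokine-like genes and their receptors, 6 were higher and 1 lower (median 1.16). Those with the largest differences were Cd74 (10.96), the platelet chemokine Pf4 (5.71), Gpr35 (2.76), Cmklr1 (2.57), Cmtm7 (2.13) and, lower, Rarres2 (-4.44), the ligand of Cmklr1.

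In fibroblasts, where 8.55% of all genes were higher and 8.53% lower, 0 of 40 signalling genes were higher and 16 lower (median -0.58), 4 of 29 inducers were higher and 4 lower (median -0.16; Il1r1 2.55, Il6 2.41 and Cebpb 1.46 among the higher), and of the 14 chemokine-like genes 2, with Rarres2 at 4.54, were higher and 3 lower (median -0.46). The median over all genes was -0.06. In pericytes (10.7% of all genes higher, 17.3% lower, median -0.16) 2 of 40 signalling genes, with the exchange factor Rasgrp2 at 3.76, were higher and 19 lower (median -0.74). Of the inducers 0 were higher and 12 lower (median -0.73), and of the chemokine-like genes 3, with Rarres2 at 4.79, were higher and 6 lower (median -0.84). In endothelial cells (10.9% higher, 13.1% lower, median -0.06) 8 signalling genes were higher and 12 lower (median 0.10). Of the inducers 1, Irf7 (1.39), was higher and 5 lower (median -0.74), and of the chemokine-like genes 2 were higher and 6 lower (median -0.93). Against 2.09% of all genes higher and 2.45% lower in beta cells, 2 chemokine-like genes and 2 signalling genes were higher, 1 signalling gene was lower, and 1 inducer, the RNA-destabilising Zfp36, was lower (-2.33). Of the 2 chemokine-like genes, Gpr35 differed by 0.79 ± 0.16 (limma, adjusted p = 0.0157). The column medians taken off were -2.89 and -2.88 in beta, -2.09 and -2.29 in alpha, and -1.95 and -2.07 in delta cells. Centring alone therefore sets a gene at 0 in all these columns higher in beta cells. In this comparison the median difference of all genes was 0.08 with centring and -0.71 without. The part of centring in the Gpr35 call was not tested, so the call is not read as a higher level in beta cells. In alpha cells (1.50% and 1.51%) 1 inducer was higher, and 1 inducer and 1 signalling gene were lower. Delta cells (1.56% and 0.840%) had 0 calls in any of the 3 lists.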

How the data were processed

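Islet cells of 3 samples (1 group) were measured by 10x 3' single-cell RNA sequencing. Per the submitters' processing notes, the reads were processed with Cell Ranger 3.2.0 (replicate 1) or 5.0.0 (replicates 2 and 3), cutadapt 2.5, FastQC 0.11.8 and Seurat (4.0.0 for replicates 2 and 3), with the build mm10. The authors deposited raw UMI counts for replicate 1. For replicates 2 and 3 the authors deposited 1 joint table of natural log values, the natural log of 1 plus the count per 10000 UMIs of the cell. Its whole UMIs were recovered for 100% of 35558086 values above 0 (tolerance 0.001), and 3008 of its 16050 columns repeated other cells and were dropped.

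Cells were kept above limits of 500 genes and 1000 UMIs, unless mitochondrial UMIs passed 20% (255 cells of replicate 1). The highest Scrublet scores were removed as doublets at 0.8% per 1000 cells (6 and 377 cells). Clustering with scanpy 1.11.5 used 2000 variable genes without the members, 30 components, 15 neighbours and Leiden resolution 1. The naming rule was revised after the clusters were seen, and clusters with markers of several classes, or of none, are in no class. Members and gene lists were chosen with earlier results of these data known.

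Levels are CPM of summed UMIs with exact Poisson 95% intervals, and shares of cells have exact Clopper-Pearson intervals, which cover counting error only. A count of 0 allows up to 3 UMIs. The main test was limma 3.58.1 (R 4.3.3), two-sided, on log2 of the mean per 10000 UMIs plus 0.05, with moderated variances, a trend, the library as a block, columns centred on their medians, and Benjamini-Hochberg adjustment over 11316 genes. limma was used because 1 of the 2 tables holds log values. edgeR 4.0.16 and DESeq2 1.42.0 on the recovered and deposited counts were alternatives, beside other pseudocounts, no filter, no centring, totals without 7 hormone genes, Leiden resolution 0.5, no removal of doublets and, chosen after seeing the data, each gene's highest cell left out. Tested on simulated data for the macrophage comparison with 11316 genes, the fit recovered 2% of genes changed 2-fold, 50% of those changed 4-fold and 100% of those changed 8-fold or 16-fold, and called 0.081% of unchanged genes. The simulated columns had the same means apart from the changed genes, and a dispersion of 0.1. The real column medians ran from -2.89 to -1.86, and UMIs held by single cells were not simulated. These rates therefore do not carry over to the calls above. The text gives levels of members with at least 10 CPM and 5 UMIs in some class. Most higher calls are given with their difference and most lower calls as counts. Of each list it gives up to 6 called genes with the largest change. Gene positions are those of GENCODE vM21 (60 of 67 rows matched). Of the members and list genes, 2 are counted with the rest but are not reported by name here.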

Additional observations from a re-analysis of the deposited data

How the results depend on the processing

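Of the 109 calls (55 higher), 24 were kept under every alternative run. Calls kept numbered 100 with a pseudocount of 0.01, 93 with 0.5, 93 without the filter, 106 without centring, 107 with hormone-free totals, 104 at Leiden resolution 0.5, 78 of 83 without removal of doublets and 74 of 105 with the highest cell left out. edgeR kept 46 with either scaling and DESeq2 kept 44. With 1 library alone, no test was possible, and all 109 kept their direction in replicate 1 and in the joint table. A fitted difference is the mean of the 2 libraries, and a call needs them to be close. The shared direction is therefore no separate support for the calls. Members called moved by over 1.5 times as follows, and the cause was not tested. edgeR with TMM, and with DESeq2 size factors, called 4 and 4 between non-endocrine and endocrine classes (main 19), 6 and 6 in endothelial cells (main 24), 11 and 11 in fibroblasts (main 18), 5 and 5 in pericytes (main 23), 4 and 4 in beta, 4 and 4 in alpha, and 5 and 5 in delta cells (main 0 in each). DESeq2 called 13 in macrophages (main 25), 9 in endothelial cells, 5 in fibroblasts, 4 in pericytes, 3 in beta, 3 in alpha and 1 in delta cells. In pericytes 13 were called without the filter and 7 without the highest cell. In beta cells 1 was called with a pseudocount of 0.5, without centring, with hormone-free totals and without removal of doublets, in alpha cells 1 with the last 2 of these, and in delta cells 1 with a pseudocount of 0.5 and 1 with hormone-free totals. Directions reversed under edgeR (TMM and DESeq2 size factors) for Ccl5 between non-endocrine and endocrine classes (-0.47 and -0.49) and for Ackr3 (0.51 and 0.49) and Ccl8 (1.14 and 1.0) in fibroblasts, without the filter for Cxcr3 in pericytes (0.02), and without the highest cell for Ccr1 in pericytes (0.15). Leiden resolution 0.5 gave no alpha comparison, and no removal of doublets gave no fibroblast comparison. Of 66 levels, 65 kept within their interval at a mitochondrial limit of 10% and 56 with hormone-free totals. The fit compares classes within each library, with the library as a block, and the 3 samples form 1 group, so there were no samples of 2 groups to pair. Depth limits the small classes: the 12 pericytes of replicate 1 had a median of 4001.5 UMIs.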

Other observations

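Clusters left without a name also held chemokines. In replicate 1, 18 cells led by S100a9, S100a8, Mmp12 and Spp1 had Cxcl2 at 5069 CPM, Ccl6 at 3074, Ccl9 at 2737, Ccr2 at 472, Cx3cr1 at 443 and Cxcr4 at 269.8. Another 14 cells, led by Slpi, C3, Saa3 and Krt19, had Cxcl5 at 1149.7 CPM, Ccl2 at 888, Cxcl10 at 433, Cxcl1 at 421 and Cxcl16 at 307. A cluster of 42 cells in the joint table led by the interferon-induced genes Rsad2 and Ifit1 had Cxcl10 at 114 CPM, with all 88 UMIs in 5 cells. Of the 754 Cxcl13 UMIs in clusters of mixed markers, 751 were in 1 cell whose leading genes included Mfge8, Clu and Vcam1.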
